A study of Nicotiana tabacum with 18 samples.

Results

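The pyruvate dehydrogenase complex was followed through 9 tobacco genes, 4 listed as PDHA, 2 as DLAT and 3 as DLD, out of the 69500 genes of the expression table. The members are the genes that the study drew under these names in its heat map of respiration genes of the hybrid Va116×GDH94. The study picked the genes of that heat map from those lower in this hybrid than in its parents, so the difference of Va116×GDH94 from Va116 and GDH94 entered the choice and is described here without a test. Leaves of field-grown tobacco (Nicotiana tabacum) were sampled 45 days after transplantation, and their RNA was sequenced in 18 libraries, 3 for each of 6 genotypes. The genotypes form 2 crosses: Va116×GDH94, the hybrid of the lines Va116 and GDH94, and K326×GDH88, the hybrid of K326 and GDH88. The labels name no treatment, and per the study's methods a sample mixed leaves of several plants of a plot, so a library describes a pool and no single plant. The labels do not say which plot a library came from, and p values measure the spread between these libraries. The members had not been chosen on the libraries of K326×GDH88, K326 and GDH88, and all tests of a hybrid below rest on those 9 libraries.

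The pyruvate dehydrogenase complex of the mitochondrion turns the pyruvate made by glycolysis into acetyl-CoA, the substrate that enters the tricarboxylic acid (TCA) cycle, and it yields NADH and carbon dioxide. Its E1 component decarboxylates pyruvate with the help of thiamin pyrophosphate, E2 transfers the acetyl group to coenzyme A with a lipoyl arm, and E3 reoxidizes that arm and passes the electrons to NAD+. In plants another form of the complex works in the plastid and feeds fatty acid synthesis. E3 also serves the 2-oxoglutarate dehydrogenase complex and the glycine decarboxylase complex, which is abundant in the mitochondria of photosynthetic leaves. PDHA is the alpha subunit of E1, DLAT is E2 (dihydrolipoyl acetyltransferase), and DLD is the usual symbol of E3 (dihydrolipoyl dehydrogenase). The study's legend expands DLD as an iron-sulfur subunit of succinate dehydrogenase, which is another enzyme, and none of the gene identifiers matched the RefSeq table at hand. The genes are therefore called by the symbol that the study gave them, whether a product is mitochondrial or plastidial was not determined, and no sequence is shown. Tobacco is an allotetraploid, and near-identical copies from its 2 ancestral genomes can share reads, so that the level of a single copy depends on how such reads were divided.

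Levels are given as FPKM, fragments scaled by transcript length and library size, a unit that allows levels of different genes to be set side by side. No source names the unit of the table, and a value per length scaled to another library total cannot be told apart from it. Library totals ran from 887628 to 1062588 FPKM, 41974 to 44138 genes were above 0, and 0 pairs of libraries were identical. Between the 3 libraries of a genotype the median SD of log2(FPKM + 1) over genes was 0.124 in Va116×GDH94, 0.082 in Va116, 0.076 in GDH94, 0.151 in K326×GDH88, 0.133 in K326 and 0.078 in GDH88, so both hybrids varied more than their parents. Of the leaf markers that the study names, NtLhcb1 and NtLhcb2, which encode light-harvesting chlorophyll proteins, lay between 9.36 and 89.85 FPKM in the 18 libraries. NtPsbA (0.04 to 7.8 FPKM) and NtrbcL (1.07 to 13.73 FPKM) carry names of proteins encoded in the plastid and were low or near 0 in some libraries. In bulk leaf RNA a lower level per cell and a smaller share of the cells that express a gene cannot be told apart. The number of reads behind a value is unknown, so its precision was taken from the 3 libraries alone.

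All 9 genes were expressed in every library and passed the filter of the tests, a mean of at least 1 FPKM in any genotype of the cross. Averaged over the 18 libraries, they ran from 4.92 FPKM for the DLD gene Nitab4.5_0005769g0030 to 37.6 FPKM for the PDHA gene Nitab4.5_0000170g0230. The median gene detected in every genotype stood at 7.99 FPKM. By this measure the PDHA and DLAT genes lay above the middle of the leaf transcriptome, at levels that exceeded 63.7% to 87.2% of the detected genes, whereas the DLD genes exceeded 32.6% to 58.3%. Va116×GDH94 had the lowest mean of the 6 genotypes in all 4 PDHA genes and both DLAT genes, while K326×GDH88 had the lowest in all 3 DLD genes. That Va116×GDH94 lay below its own parents was fixed by the choice of the genes. Libraries of the lowest genotype overlapped those of the next for Nitab4.5_0000807g0170, Nitab4.5_0006099g0010 and the DLD gene Nitab4.5_0006972g0010. The distance between the highest and the lowest genotype ranged from 1.20-fold for the DLAT gene Nitab4.5_0006099g0010 to 2.48-fold for Nitab4.5_0005769g0030.

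**Figure D1:**
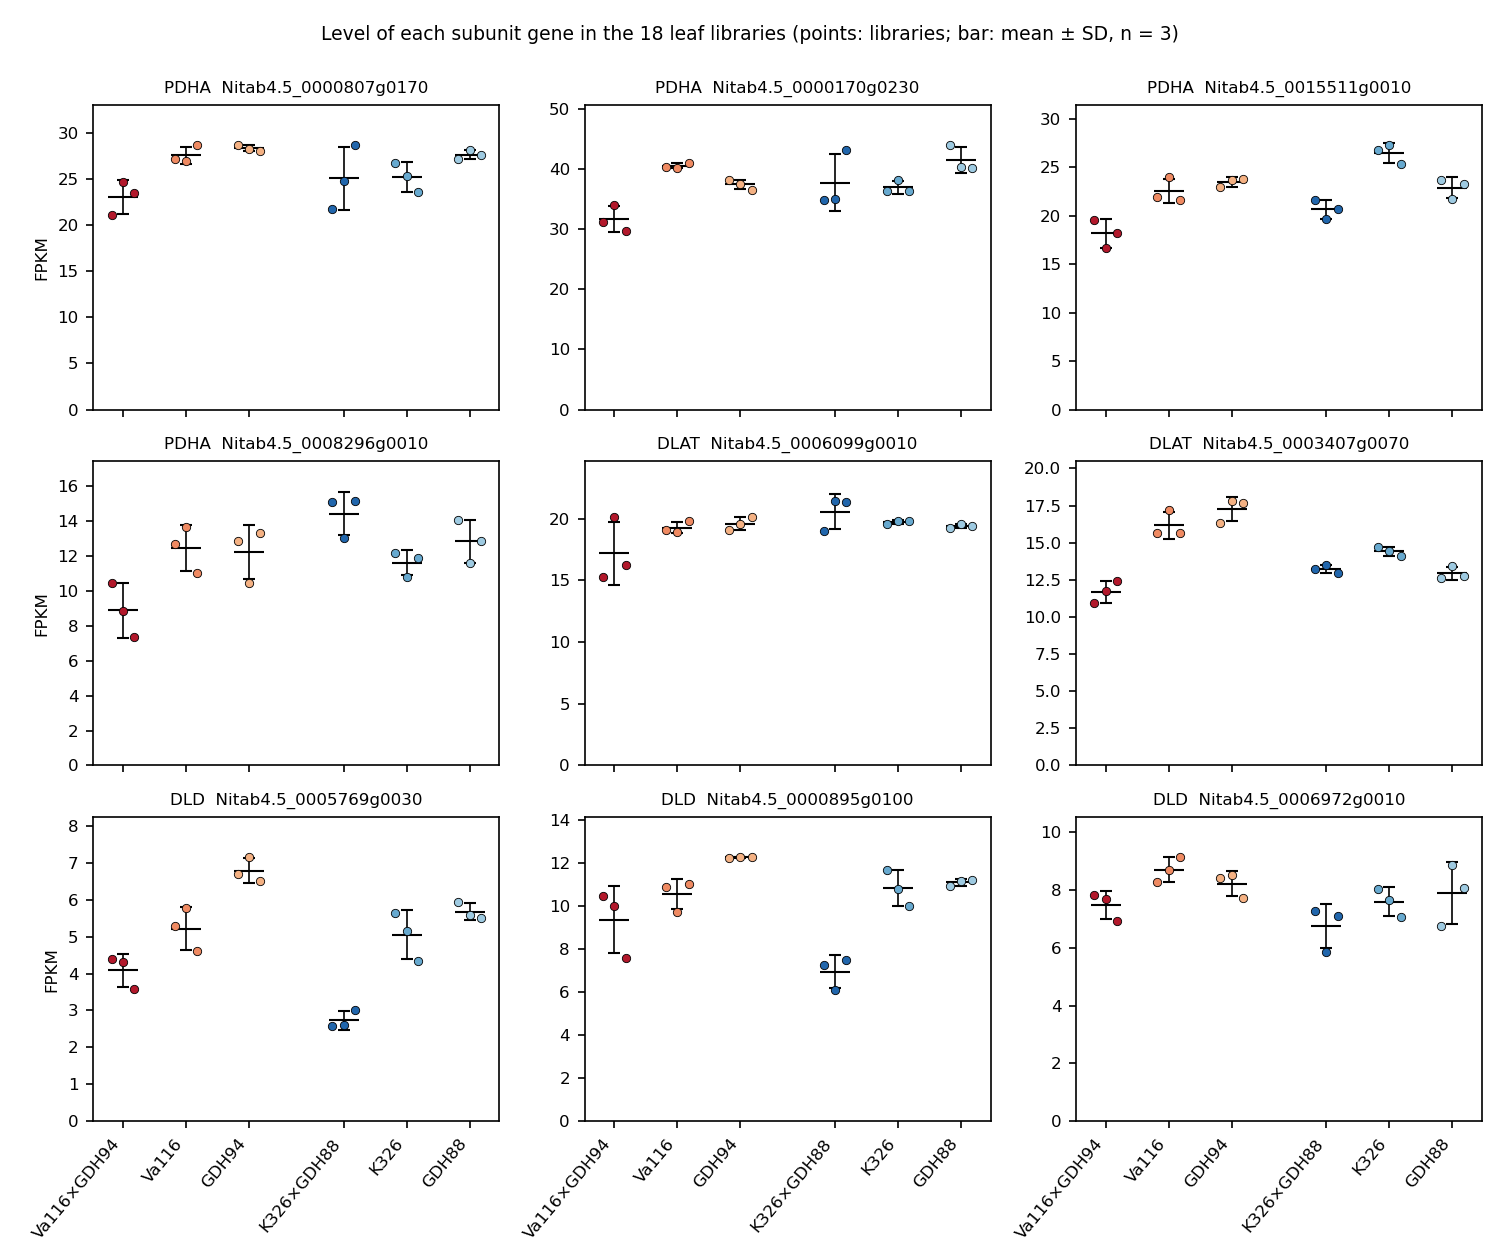
FPKM (y axis, from 0) of the 9 subunit genes in the 6 genotypes (x axis), each hybrid left of its parents, with points for libraries and bars for the mean ± SD of 3 libraries. The 3 libraries of K326×GDH88 lie below those of all other genotypes for the DLD genes Nitab4.5_0005769g0030 and Nitab4.5_0000895g0100, and the PDHA gene Nitab4.5_0000170g0230 reaches the highest level, up to 44 FPKM.

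The E1 alpha genes come first in the reaction. The most abundant of them, Nitab4.5_0000170g0230, had 31.21, 34.08 and 29.71 FPKM in Va116×GDH94, against 40.33, 40.20 and 41.02 FPKM in Va116 and 38.12, 37.58 and 36.56 FPKM in GDH94. It had 34.89, 35.07 and 43.13 FPKM in K326×GDH88, against 36.37, 38.20 and 36.35 FPKM in K326 and 44, 40.34 and 40.11 FPKM in GDH88. Every Va116×GDH94 library lay below every other library of the series for this gene, and the third K326×GDH88 library stood well above the other two of its genotype. In the K326×GDH88 cross the hybrid did not pass the test against either parent. The log2 fold change was 0.02 against K326, with a 95% interval of -0.18 to 0.22 (adjusted p = 0.884, limma), and -0.14 against GDH88, with an interval of -0.34 to 0.06 (adjusted p = 0.238).

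The PDHA gene Nitab4.5_0000807g0170 gave 21.05, 24.66 and 23.42 FPKM in Va116×GDH94, against 27.12, 26.97 and 28.63 FPKM in Va116 and 28.67, 28.23 and 28.00 FPKM in GDH94. It gave 21.72, 24.79 and 28.62 FPKM in K326×GDH88, against 26.76, 25.28 and 23.57 FPKM in K326 and 27.17, 28.13 and 27.57 FPKM in GDH88. The Va116×GDH94 libraries were below all libraries of both parents, but the K326×GDH88 libraries spread over the whole range of their parents. K326×GDH88 was not called against K326 (log2 fold change -0.02, 95% interval -0.23 to 0.20, adjusted p = 0.921, limma) or against GDH88 (-0.15, interval -0.36 to 0.07, adjusted p = 0.261). For both this gene and Nitab4.5_0000170g0230 the third K326×GDH88 library decided the outcome against GDH88. Without it, the log2 fold changes were -0.24 for each, with adjusted p values of 0.0489 for Nitab4.5_0000807g0170 and 0.0287 for Nitab4.5_0000170g0230 (limma).

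Among the PDHA genes, Nitab4.5_0015511g0010 was the one that fell in K326×GDH88. It had 21.65, 19.64 and 20.71 FPKM in K326×GDH88, against 26.75, 27.31 and 25.37 FPKM in K326 and 23.73, 21.68 and 23.23 FPKM in GDH88. In the other cross it had 19.59, 16.68 and 18.24 FPKM in Va116×GDH94, against 21.98, 23.95 and 21.64 FPKM in Va116 and 22.94, 23.65 and 23.84 FPKM in GDH94. Both hybrids thus lay below both of their parents in every library, although the highest K326×GDH88 library was only 0.03 FPKM under the lowest of GDH88. The log2 fold change of K326×GDH88 was -0.34 ± 0.073 (SE, n = 3 libraries per genotype) against K326 (adjusted p = 0.00892, limma), with a 95% interval of -0.50 to -0.18. Against GDH88 it was -0.14 with an interval of -0.30 to 0.02 and was not called (adjusted p = 0.151, limma), and against the mid-parent value, the mean of both parents on the log2 scale, it was -0.24 (adjusted p = 0.0151, limma). The call against the mid-parent value was lost under median-ratio scaling (-0.12, adjusted p = 0.197). With every library scaled to the same total, the gene was also called lower than in GDH88 (-0.24, adjusted p = 0.0443, limma).

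The least abundant PDHA gene, Nitab4.5_0008296g0010, was the only member called higher in a hybrid. It had 15.06, 12.99 and 15.13 FPKM in K326×GDH88, against 12.12, 10.78 and 11.87 FPKM in K326 and 14.06, 11.60 and 12.82 FPKM in GDH88. In Va116×GDH94 it had 10.46, 8.84 and 7.33 FPKM, against 12.67, 13.64 and 11.02 FPKM in Va116 and 12.83, 10.42 and 13.31 FPKM in GDH94. The K326×GDH88 libraries were above all of K326 and overlapped GDH88, whereas the Va116×GDH94 libraries were below all of Va116 and overlapped GDH94 by 1 library. K326×GDH88 rose by 0.29 ± 0.095 (SE) on the log2 scale against K326 (95% interval 0.08 to 0.50, adjusted p = 0.0491, limma), which lies just inside the threshold. The call was lost in 14 alternatives, with adjusted p values up to 0.292, among them 8 of the 9 that leave out 1 library. Against GDH88 the difference was 0.16 with an interval of -0.05 to 0.37 (adjusted p = 0.219, limma).

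The E2 genes carry the acetyl group to coenzyme A. Nitab4.5_0006099g0010 had the narrowest range of genotype means among the members. It had 15.28, 20.11 and 16.26 FPKM in Va116×GDH94, against 19.11, 18.95 and 19.82 FPKM in Va116 and 19.11, 19.57 and 20.16 FPKM in GDH94. It had 18.99, 21.46 and 21.33 FPKM in K326×GDH88, against 19.59, 19.84 and 19.79 FPKM in K326 and 19.22, 19.54 and 19.39 FPKM in GDH88. The parents of both crosses stayed within 18.95 and 20.16 FPKM, and while K326×GDH88 held libraries on both sides of its parents, Va116×GDH94 held a pair of libraries below and 1 within their range. K326×GDH88 was not called against K326 (log2 fold change 0.06, 95% interval -0.10 to 0.21, adjusted p = 0.589, limma) or GDH88 (0.08, interval -0.08 to 0.24, adjusted p = 0.395).

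The other DLAT gene, Nitab4.5_0003407g0070, had 10.94, 11.77 and 12.40 FPKM in Va116×GDH94, against 15.65, 17.19 and 15.65 FPKM in Va116 and 16.31, 17.82 and 17.68 FPKM in GDH94. It had 13.25, 13.47 and 12.93 FPKM in K326×GDH88, against 14.73, 14.44 and 14.11 FPKM in K326 and 12.65, 13.45 and 12.73 FPKM in GDH88. Va116×GDH94 lay below all of its parents' libraries by at least 3.25 FPKM, and K326×GDH88 lay below K326 and among the libraries of GDH88. The K326×GDH88 differences did not pass the test. The log2 fold change was -0.12 against K326, with a 95% interval of -0.27 to 0.04 (adjusted p = 0.230, limma), and 0.03 against GDH88, with an interval of -0.13 to 0.18 (adjusted p = 0.774). With every library scaled to the same total, the gene was called lower than in K326 (-0.25, adjusted p = 0.0312).

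A pair of the 3 genes listed as DLD, the symbol of the E3 component, carried the largest differences of K326×GDH88 from its parents among the members. Nitab4.5_0005769g0030 had 2.57, 2.61 and 3.02 FPKM in K326×GDH88, against 5.65, 5.15 and 4.35 FPKM in K326 and 5.93, 5.59 and 5.5 FPKM in GDH88. It had 4.38, 4.31 and 3.58 FPKM in Va116×GDH94, against 5.28, 5.76 and 4.61 FPKM in Va116 and 6.68, 7.16 and 6.51 FPKM in GDH94. Both hybrids were below both of their parents in every library, and K326×GDH88 was also below every Va116×GDH94 library. K326×GDH88 fell by 0.69 on the log2 scale against K326 (SE 0.105, 95% interval -0.92 to -0.46, adjusted p = 0.00178, limma). Against GDH88 it fell by 0.84 (SE 0.105, interval -1.07 to -0.61, adjusted p = 0.000509), and against the mid-parent value by 0.77 (interval -0.97 to -0.57, adjusted p = 0.000447).

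The DLD gene Nitab4.5_0000895g0100 moved in the same direction. It had 7.28, 6.10 and 7.51 FPKM in K326×GDH88, against 11.69, 10.81 and 10.01 FPKM in K326 and 10.93, 11.19 and 11.20 FPKM in GDH88. In the other cross it had 10.49, 10.03 and 7.60 FPKM in Va116×GDH94, against 10.91, 9.74 and 11.02 FPKM in Va116 and 12.26, 12.30 and 12.28 FPKM in GDH94. All 3 K326×GDH88 libraries were below the other 15 libraries, and the third Va116×GDH94 library, the lowest of that hybrid, came within 0.09 FPKM of them. K326×GDH88 fell by 0.57 on the log2 scale against K326 (SE 0.093, 95% interval -0.78 to -0.37, adjusted p = 0.00248, limma), by 0.61 against GDH88 (interval -0.81 to -0.40, adjusted p = 0.00141) and by 0.59 against the mid-parent value (interval -0.77 to -0.41, adjusted p = 0.00095). In all 21 settings run with no fold limit for the comparisons with each parent and all 20 for the mid-parent value, this gene and Nitab4.5_0005769g0030 stayed called as lower. On the log2(FPKM + 1) scale neither was called with a 2-fold limit.

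The third DLD gene, Nitab4.5_0006972g0010, had 7.25, 5.86 and 7.10 FPKM in K326×GDH88, against 8.04, 7.66 and 7.05 FPKM in K326 and 6.73, 8.86 and 8.06 FPKM in GDH88. It had 7.82, 7.68 and 6.92 FPKM in Va116×GDH94, against 8.27, 8.68 and 9.14 FPKM in Va116 and 8.39, 8.51 and 7.73 FPKM in GDH94. The libraries of K326×GDH88 overlapped those of both parents, and those of Va116×GDH94 overlapped GDH94. The log2 fold change of K326×GDH88 was -0.15 against K326 (95% interval -0.40 to 0.10, adjusted p = 0.337, limma) and -0.20 against GDH88 (interval -0.45 to 0.05, adjusted p = 0.192). The gene made up 41.0% ± 1.24 of the summed DLD level in K326×GDH88, against 32.4% ± 0.629 in K326 and 31.9% ± 3.07 in GDH88 (SD, n = 3), and the 3 K326×GDH88 libraries (40.2% to 42.4%) lay above the 6 parental ones (28.5% to 34.6%).

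**Figure D2:**
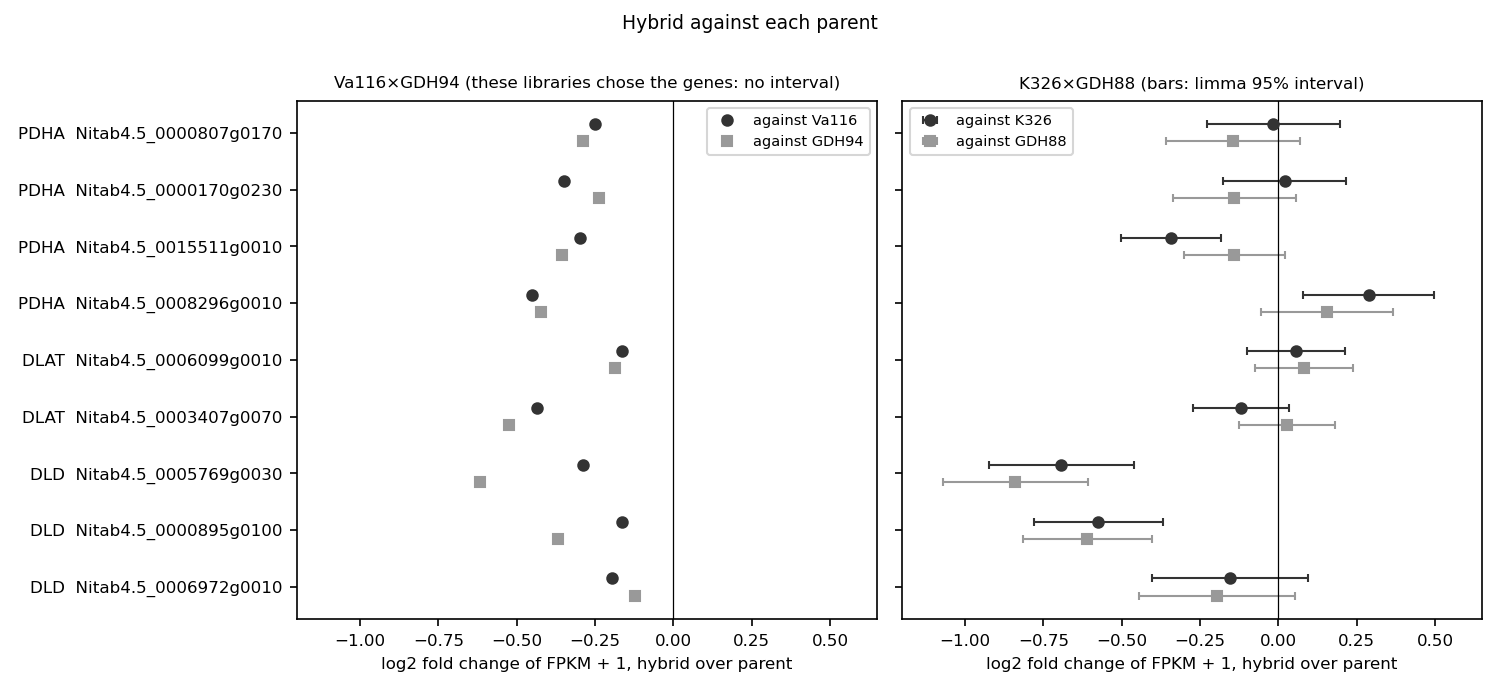
Log2 fold change of FPKM + 1 (x axis) of each hybrid over each parent for the 9 genes (rows), with Va116×GDH94 on the left and K326×GDH88 on the right. Bars on the right are 95% limma intervals, and none are drawn on the left because these libraries entered the choice of the genes. In K326×GDH88 the intervals against both parents exclude 0 for Nitab4.5_0005769g0030 and Nitab4.5_0000895g0100.

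Counted together, 3 of the 9 genes were called lower and 1 higher in K326×GDH88 against K326 (adjusted p under 0.05, limma, no fold limit), while 14.1% of the 35438 genes tested were called lower and 9.49% higher. Against GDH88, 2 of 9 were called lower and 0 higher, and the shares over all genes were 25.1% lower and 10.5% higher. At an unadjusted p under 0.05 the count of higher members stayed 0. Against the mid-parent value 3 of 9 were called lower and 0 higher, beside 23.8% and 10.9% of all genes, and 1 member was higher at an unadjusted p under 0.05. The 2 of 9 lower than GDH88 and the 3 of 9 lower than the mid-parent value are thus near the share of all genes. The median log2 fold change of the members was -0.12 against K326, -0.14 against GDH88 and -0.08 against the mid-parent value, and over all genes tested it was -0.09, -0.12 and -0.10. The medians of the list were close to those of all genes in this cross, and the called decreases lay in a PDHA gene and a pair of DLD genes. In 3 of the 9 genes (Nitab4.5_0015511g0010, Nitab4.5_0005769g0030 and Nitab4.5_0000895g0100) every K326×GDH88 library was below every library of both parents, as it was in 16.8% of all genes.

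In Va116×GDH94, where the choice of the genes fixes the direction, all 9 means were below both parents. The log2 fold changes ran from -0.45 (Nitab4.5_0008296g0010) to -0.17 (Nitab4.5_0006099g0010 and Nitab4.5_0000895g0100) against Va116, and from -0.62 (Nitab4.5_0005769g0030) to -0.12 (Nitab4.5_0006972g0010) against GDH94. The study's methods ask for an absolute log2 fold change of at least 2 in a differentially expressed gene. None of the 9 members reached that limit here, on log2(FPKM + 1) and with another method than the study's. In 5 of 9 genes all hybrid libraries lay below all parental ones, and this held for 10.9% of the 36068 genes tested in this cross. Nothing is read from this count. Some hybrid libraries reached into the parental range, such as libraries 1 and 2 for Nitab4.5_0000895g0100, which lay inside the range of Va116, and library 2 for Nitab4.5_0006099g0010, which lay above most parental libraries.

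The parents of each cross were also compared with each other, and no trait of the members is read from these counts. Between K326 and GDH88, 0 of 9 genes were called in either direction, while 8.52% of all genes were lower and 6.56% higher in K326. For 9 genes, 0 calls is near these shares. At an unadjusted p under 0.05 there was 1 member, the PDHA gene Nitab4.5_0015511g0010, which was higher in K326 (log2 fold change 0.20, 95% interval 0.04 to 0.36, adjusted p = 0.0872, limma). Between Va116 and GDH94, 1 of 9 genes was called lower and 0 higher, beside 31.4% and 13.0% of all genes. At an unadjusted p under 0.05 the count of higher members was also 0. The gene was Nitab4.5_0005769g0030, whose 3 libraries in Va116 (4.61 to 5.76 FPKM) lay below the 3 in GDH94 (6.51 to 7.16 FPKM), with a log2 fold change of -0.33 (95% interval -0.54 to -0.12, adjusted p = 0.0175, limma). These libraries also served to choose the members, and the call was lost under median-ratio scaling (-0.20, adjusted p = 0.0988), under quantile normalization (-0.16, adjusted p = 0.171), without the second GDH94 library (-0.29, adjusted p = 0.0645) and without the third Va116 library (-0.26, adjusted p = 0.0640).

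Levels were also summed over the listed genes of each family, which need not be all copies of a subunit. In Va116×GDH94 the choice of the genes fixes sums below those of the parents, so no difference between the hybrids is read from them. The PDHA sum was 81.8 ± 2.82 FPKM in Va116×GDH94, against 103.1 ± 1.48 in Va116 and 101.4 ± 1.37 in GDH94, and 97.8 ± 8.49 FPKM in K326×GDH88, against 100.2 ± 2.68 in K326 and 104.8 ± 3.73 in GDH88 (SD, n = 3). The DLAT sum was 28.9 ± 2.84 FPKM in Va116×GDH94, against 35.5 ± 0.690 in Va116 and 36.9 ± 1.29 in GDH94, and 33.8 ± 1.40 FPKM in K326×GDH88, against 34.2 ± 0.232 in K326 and 32.3 ± 0.588 in GDH88. The DLD sum was 20.9 ± 2.48 FPKM in Va116×GDH94, against 24.5 ± 0.295 in Va116 and 27.3 ± 0.727 in GDH94, and 16.4 ± 1.64 FPKM in K326×GDH88, against 23.5 ± 1.99 in K326 and 24.7 ± 1.03 in GDH88. In K326×GDH88, then, the E1 alpha and E2 sums lay within or near the spread of the parents and the DLD sum lay below it.

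A ratio of sums within a library is the same whatever factor the library is scaled by. The ratio of the PDHA sum to the DLD sum was 5.46, 6.35 and 6.10 in the K326×GDH88 libraries, against 4.02, 4.30 and 4.54 in K326 and 4.62, 3.97 and 4.19 in GDH88. It was 3.63, 3.83 and 4.35 in Va116×GDH94, against 4.17, 4.33 and 4.13 in Va116 and 3.75, 3.57 and 3.84 in GDH94. The 3 K326×GDH88 libraries stood above the other 15, whereas those of Va116×GDH94 overlapped both of their parents. The ratio of the DLAT sum to the DLD sum was likewise higher in K326×GDH88 (1.89 to 2.40) than in K326 (1.35 to 1.58) and GDH88 (1.29 to 1.35). The ratio of PDHA to DLAT, 2.65 to 3.14 in K326×GDH88, overlapped both K326 (2.87 to 2.97) and GDH88 (3.08 to 3.42). The ratios are descriptions of the members and were not tested.

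**Figure D3:**
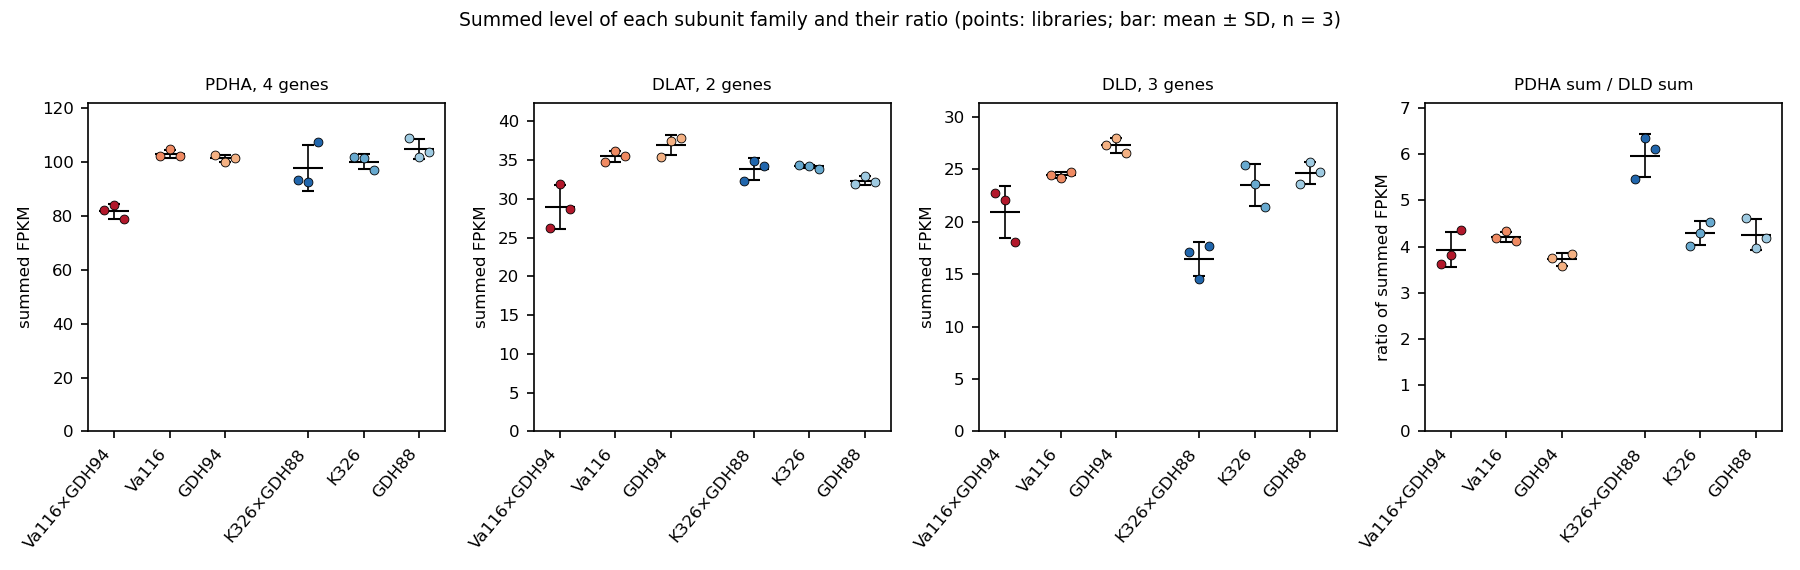
Summed FPKM of the PDHA, DLAT and DLD genes and the ratio of the PDHA to the DLD sum (y axes, from 0) in the 6 genotypes (x axis), each hybrid left of its parents, with points for libraries and bars for the mean ± SD of 3. The DLD sum of K326×GDH88 (16.4 ± 1.64 FPKM) lies below both parents and its ratio (5.97 ± 0.460) above all other genotypes.

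Set side by side on the FPKM scale, the 2 hybrids deviated from the mean of their parents by different amounts in different genes, and the difference between the crosses was not tested. The deviation had a median of -18.7% in Va116×GDH94 and -5.19% in K326×GDH88 over the 9 genes. The members were chosen for low levels in Va116×GDH94, so its lower median is not read as a difference between the hybrids. It was -27.9% ± 12.7 in Va116×GDH94 and 17.9% ± 9.96 in K326×GDH88 for the PDHA gene Nitab4.5_0008296g0010 (SD, n = 3), the member with the widest gap. For the DLAT gene Nitab4.5_0003407g0070 it was -30.0% ± 4.38 in Va116×GDH94 and -3.42% ± 1.98 in K326×GDH88. The DLD genes had the opposite order. Nitab4.5_0005769g0030 deviated by -31.8% ± 7.38 in Va116×GDH94 and -49.0% ± 4.65 in K326×GDH88, and Nitab4.5_0000895g0100 by -17.9% ± 13.6 in Va116×GDH94 and -36.5% ± 6.90 in K326×GDH88. Nitab4.5_0015511g0010 (-21.0% in Va116×GDH94 and -16.3% in K326×GDH88) and Nitab4.5_0006972g0010 (-11.6% in Va116×GDH94 and -12.9% in K326×GDH88) had closer values. In K326×GDH88 7 of the 9 means were below the mid-parent level, the exceptions being Nitab4.5_0008296g0010 and Nitab4.5_0006099g0010 (5.27%). The median of all genes tested in that cross was also below the mid-parent value (log2 fold change -0.10), so this count is not read as a trait of the members.

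**Figure D4:**
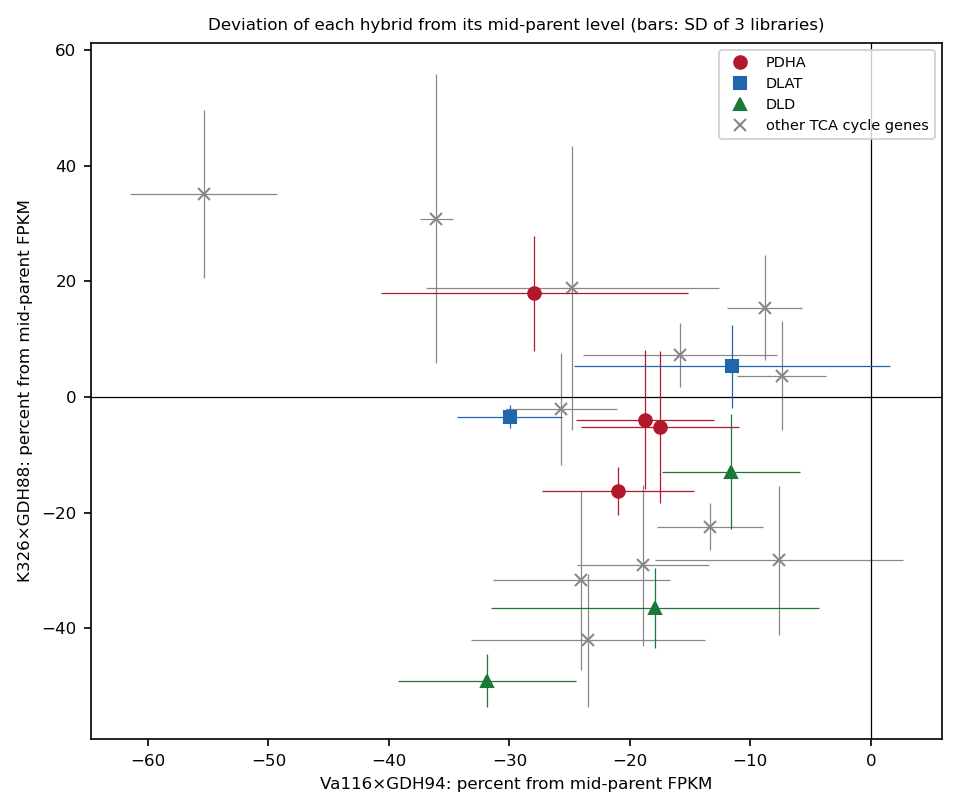
Percent deviation of the hybrid's FPKM from the mean of its parents in Va116×GDH94 (x axis) and in K326×GDH88 (y axis) for the 9 subunit genes (coloured) and 12 other TCA cycle genes of the same heat map (grey crosses), with bars for the SD of 3 hybrid libraries. All genes lie left of 0 on the x axis, a direction that the choice of the genes favours. The DLD genes Nitab4.5_0005769g0030 and Nitab4.5_0000895g0100 lie lowest of the members on the y axis and Nitab4.5_0008296g0010 lies highest of them, at 17.9%.

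Across the 18 libraries, which share genotypes and crosses, the members varied together only in part. Over the 36 pairs of genes the Pearson r of log2(FPKM + 1) had a median of 0.44, from -0.12 to 0.93. The pair with the highest value was Nitab4.5_0005769g0030 with Nitab4.5_0000895g0100, both DLD genes (0.93), followed by the PDHA genes Nitab4.5_0000807g0170 and Nitab4.5_0000170g0230 (0.76). Pairs within a family had a median of 0.55 (10 pairs) and pairs between families 0.39 (26 pairs). The PDHA gene Nitab4.5_0008296g0010 and the DLAT gene Nitab4.5_0006099g0010 had values between -0.12 and -0.04 with all 3 DLD genes. After the mean of each genotype was removed, the median over all pairs was 0.11 and over the 3 DLD pairs 0.50, so most of the shared pattern lay between genotypes. The low level in Va116×GDH94, on which the members were chosen, is part of that pattern. The DLD genes differ from the others in level as well, and these values carry no test.

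**Figure D5:**
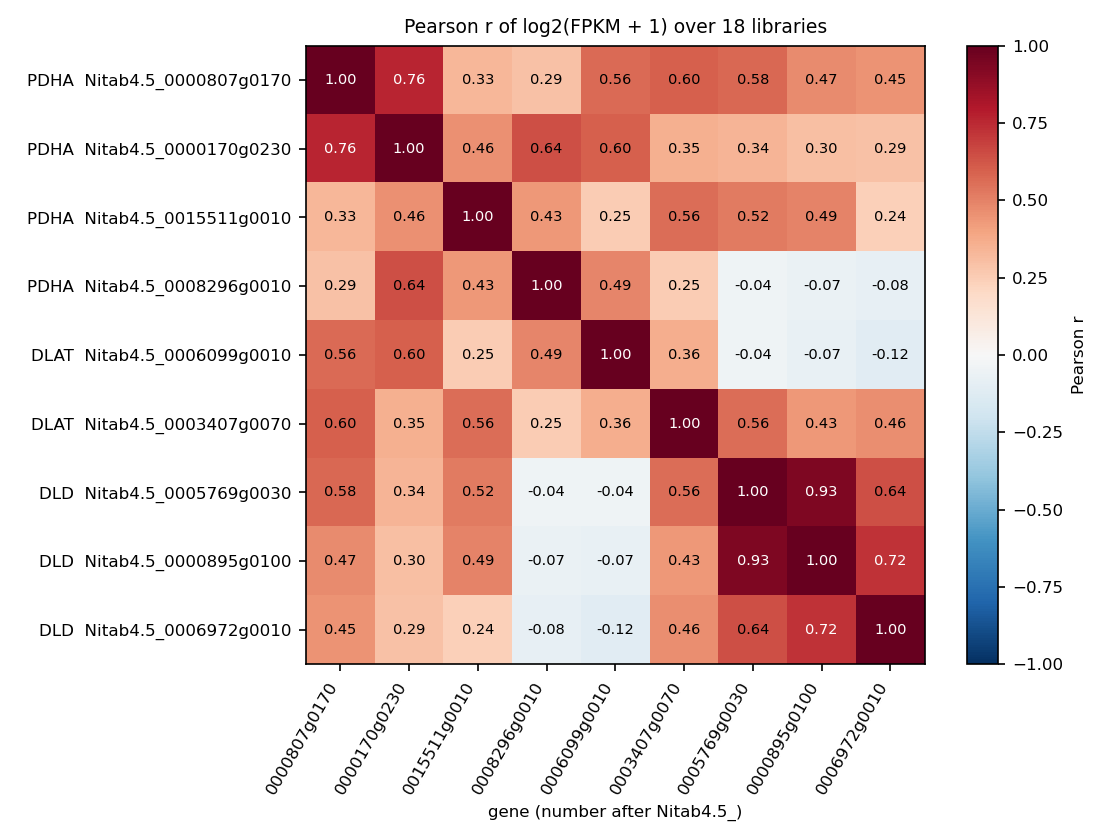
Pearson r of log2(FPKM + 1) over the 18 libraries for each pair of the 9 subunit genes, ordered by family on both axes (colour and printed value, from -1 to 1). The 3 DLD genes form a block of 0.64 to 0.93, and the PDHA gene Nitab4.5_0008296g0010 and the DLAT gene Nitab4.5_0006099g0010 lie near 0 with them.

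The mean standardised profile of the 9 genes was compared with 31555 other genes that averaged at least 1 FPKM in every genotype. This profile includes the low level in Va116×GDH94 on which the members were chosen. The 3 genes most alike over the 18 libraries were Nitab4.5_0000826g0280 (Pearson r = 0.965), which the study's sheets describe as a nucleoporin interacting component of the Nup93/Nic96 type, Nitab4.5_0001864g0020 (0.962) and Nitab4.5_0005337g0010 (0.960). Nitab4.5_0000826g0280 averaged 4.17 FPKM in Va116×GDH94, against 9.03 FPKM in Va116 and 11.02 FPKM in GDH94, and 6.24 FPKM in K326×GDH88, against 8.97 FPKM in K326 and 9.09 FPKM in GDH88. In all, 52 genes had an r of at least 0.9.

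Downstream of the complex, the same heat map holds 12 other genes of the TCA cycle and its branch points, and it was likewise chosen on Va116×GDH94. In K326×GDH88, 4 of the 12 were called lower and 3 higher against K326 (limma, adjusted p under 0.05), beside 14.1% and 9.49% of all genes, and 5 lower and 2 higher against GDH88, beside 25.1% and 10.5%. The median log2 fold change of the 12 was 0.03 against K326 and -0.07 against GDH88. The genes at the entry of the cycle went down against both parents. Citrate synthase (CS, Nitab4.5_0000468g0060), which joins acetyl-CoA to oxaloacetate, had 22.83, 22.69 and 24.88 FPKM in K326×GDH88, against 33.10, 28.58 and 27.70 FPKM in K326 and 31.48, 29.97 and 30.75 FPKM in GDH88. The hybrid lay below all 6 parental libraries, with log2 fold changes of -0.33 against K326 (adjusted p = 0.0174, limma) and -0.38 against GDH88 (adjusted p = 0.00665). Both aconitase genes (ACO), which form isocitrate, fell against both parents, by 0.56 and 0.51 on the log2 scale against K326 and by 0.39 and 0.47 against GDH88. The succinate dehydrogenase iron-sulfur gene Nitab4.5_0001031g0210 (SDHB) also fell against both, by 0.55 against K326 and 0.52 against GDH88, at levels of only 1.37 to 3.68 FPKM in the cross.

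The 2-oxoglutarate dehydrogenase gene (OGDH, Nitab4.5_0009327g0010), E1 of the other complex that uses E3, had 5.97, 5.75 and 8.51 FPKM in K326×GDH88, against 9.81, 8.08 and 8.61 FPKM in K326 and 11.13, 10.65 and 10.98 FPKM in GDH88. The third hybrid library lay among those of K326, and all 3 lay below GDH88. The log2 fold change was -0.64 against GDH88 (adjusted p = 0.00479, limma) and -0.36 against K326, where the call was missed (95% interval -0.64 to -0.08, adjusted p = 0.0640). The genes called higher were the other SDHB gene (Nitab4.5_0002158g0230, 0.49) and the malate dehydrogenase genes (MDH) Nitab4.5_0000451g0100 (0.32) and Nitab4.5_0009145g0010 (0.49) against K326, and the MDH gene Nitab4.5_0000044g0330 (0.26) and phosphoenolpyruvate carboxykinase (pckA, Nitab4.5_0000377g0180, 0.37) against GDH88. None of these 5 was called against the other parent. In Va116×GDH94 all 12 means were below the mid-parent level, a direction that the choice of the list favours. Against GDH94 alone 11 of the 12 were lower. The exception was the MDH gene Nitab4.5_0000451g0100, with a mean of 10.78 FPKM in Va116×GDH94 and 10.15 FPKM in GDH94.

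Of 4 genes for partners of these enzymes, taken from the study's sheets of genes that differed between Va116×GDH94 and a parent, 3 passed the filter in the K326×GDH88 cross. Of these, 0 of 3 were called against K326, GDH88 or the mid-parent value (0 also at an unadjusted p under 0.05, limma). The shares of all genes called lower and higher were 14.1% and 9.49% against K326, 25.1% and 10.5% against GDH88, and 23.8% and 10.9% against the mid-parent value. With 3 genes, 0 calls is near these shares and is not read as a lack of change. The 3 genes are a pair for the H protein, the lipoyl carrier of glycine decarboxylase that E3 reoxidizes, and a thiamin pyrophosphokinase, which makes the cofactor of E1. The H protein gene Nitab4.5_0000138g0050 had 2.75, 6.15 and 4.45 FPKM in K326×GDH88, against 6.41, 4.53 and 3.79 FPKM in K326 and 5.55, 6.73 and 6.24 FPKM in GDH88, and the hybrid overlapped both. It had 0.49, 0.48 and 0.35 FPKM in Va116×GDH94, against 7.94, 5.96 and 6.33 FPKM in Va116 and 1.43, 1.16 and 0.48 FPKM in GDH94. The fourth gene, Nitab4.5_0000895g0180, is described as a kinase of pyruvate or branched-chain dehydrogenase, the kind of enzyme that switches E1 off by phosphorylation. It had 0, 0 and 0.15 FPKM in Va116×GDH94, against 1.30, 1.81 and 1.54 FPKM in Va116 and 0.51, 0.41 and 0.37 FPKM in GDH94. In K326×GDH88 it had 0.44, 0.72 and 0.77 FPKM, against 0.50, 0.70 and 0.48 FPKM in K326 and 1.01, 0.44 and 0.98 FPKM in GDH88, which is too low to have been tested in that cross.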

How the data were processed

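RNA of 18 leaf libraries was analysed, 3 per genotype, with groups taken from the sample labels. The authors aligned reads to the K326 genome with HISAT2 and estimated levels with RSEM, per the methods. StringTie is also named in the submitters' processing notes. The deposited table holds values per gene and library that were taken as FPKM, since 3 library totals exceed what TPM allows. No read counts were used. Tests on genes that averaged at least 1 FPKM in some genotype of the cross used log2(FPKM + 1) and limma 3.58.1 in R 4.3.3 (linear model over the 9 libraries of a cross, contrasts, empirical Bayes with a trend, two-sided). P values were adjusted by Benjamini-Hochberg over all genes tested, and a call had an adjusted p under 0.05 with no fold limit. The pseudocount of 1 shrinks fold changes of low genes. The procedure was tested on simulated data. Sums, ratios and correlations were computed in Python 3.11.15 with NumPy 2.4.6 and pandas 2.3.3. The genes named are the 9 members, the lists of other TCA cycle and partner genes, the leaf markers and the 3 genes most alike. The members and lists were chosen with earlier results of these data known. PDHA identifiers were read from the study's heat map. Alternatives covered the pseudocount, the filter, scaling, the libraries in the fit, the trend, a fold limit, a replicate block and each library left out.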

Additional observations from a re-analysis of the deposited data

Results flagged for a closer look

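The PDHA gene Nitab4.5_0008296g0010 deviated from the mean FPKM of its parents in opposite directions in the 2 hybrids. Every Va116×GDH94 library was below the mid-parent level, with a mean of -27.9%, and every K326×GDH88 library was above it, with a mean of 17.9%. The direction in Va116×GDH94 was fixed by the choice of the genes. In K326×GDH88 the gene was not called against the mid-parent value (log2 fold change 0.22, adjusted p = 0.057, limma). The difference between the crosses was not tested.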

How the results depend on the processing

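The decreases of the DLD genes Nitab4.5_0005769g0030 and Nitab4.5_0000895g0100 in K326×GDH88 were called under every alternative run except a 2-fold limit, with log2 fold changes from -0.86 to -0.57 and from -0.70 to -0.48 against K326, from -1.03 to -0.68 and from -0.70 to -0.47 against GDH88, and the PDHA gene Nitab4.5_0015511g0010 stayed called against K326 under the same alternatives (-0.48 to -0.25). Scaling moved the median of all genes by up to 0.143 on the log2 scale (Va116 against GDH94, quantile normalization), and by 0.133 for K326×GDH88 against GDH88 under median-ratio scaling, so small differences turned with it. Depth was unknown, and precision rests on 3 libraries per genotype.

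Sign changes concerned 36 of 891 values, and 0 of the 36 were past the threshold. Under median-ratio scaling they were 0.081 (Nitab4.5_0000807g0170, K326×GDH88 against K326), 0.010, 0.016 and 0.013 (Nitab4.5_0000807g0170, Nitab4.5_0000170g0230 and Nitab4.5_0015511g0010, against GDH88), 0.045, 0.067 and 0.076 (Nitab4.5_0000807g0170, Nitab4.5_0000170g0230 and Nitab4.5_0003407g0070, against the mid-parent value), 0.020 and 0.009 (Nitab4.5_0000895g0100 and Nitab4.5_0006972g0010, K326 against GDH88), and 0.106, 0.084, 0.118 and 0.049 (Nitab4.5_0000807g0170, Nitab4.5_0015511g0010, Nitab4.5_0006099g0010 and Nitab4.5_0003407g0070, Va116 against GDH94). Under quantile normalization they were -0.019 (Nitab4.5_0000170g0230, K326×GDH88 against K326), 0.031 (Nitab4.5_0003407g0070, against the mid-parent value), 0.001 (Nitab4.5_0006972g0010, K326 against GDH88), and 0.035, 0.032, 0.093 and 0.033 (Nitab4.5_0000807g0170, Nitab4.5_0015511g0010, Nitab4.5_0006099g0010 and Nitab4.5_0003407g0070, Va116 against GDH94). With equal library totals they were -0.121 and -0.083 (Nitab4.5_0000170g0230 and Nitab4.5_0006099g0010, K326×GDH88 against K326), -0.017 and -0.067 (Nitab4.5_0006099g0010 and Nitab4.5_0003407g0070, against GDH88), -0.050 (Nitab4.5_0006099g0010, against the mid-parent value), 0.004 (Nitab4.5_0000895g0100, K326 against GDH88) and -0.025 (Nitab4.5_0008296g0010, Va116 against GDH94). With 1 library left out, the values ranged from -0.113 to 0.079 (Nitab4.5_0000807g0170) and from -0.077 to 0.072 (Nitab4.5_0000170g0230) for K326×GDH88 against K326, from -0.177 to 0.014 (Nitab4.5_0000807g0170) against the mid-parent value, from -0.086 to 0.016 (Nitab4.5_0000895g0100) and from -0.141 to 0.035 (Nitab4.5_0006972g0010) for K326 against GDH88, and from -0.070 to 0.108 (Nitab4.5_0008296g0010) for Va116 against GDH94.

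Counts of called members in the tested comparisons moved in these cases, and the cause was not tested. The share of all genes called was not worked out under each alternative, so no change particular to the members is read from these counts. With a 2-fold limit every count was 0 in all comparisons. With equal library totals, 1 more member was lower than in K326 (Nitab4.5_0003407g0070) and 1 more lower than in GDH88 (Nitab4.5_0015511g0010). Under median-ratio scaling, 1 fewer was lower than the mid-parent value (Nitab4.5_0015511g0010). The 1 member higher in K326×GDH88 than in K326 became 0 with a pseudocount of 0.1, with no filter, with equal library totals, with all 18 libraries in one fit, with only the genotypes compared and with no trend. Higher members against GDH88 became 2 under median-ratio scaling, and against the mid-parent value 1 with a mean of at least 5 FPKM, 2 under median-ratio scaling and 1 under quantile normalization. For K326 against GDH88, 1 was higher under median-ratio scaling and with all 18 libraries. For Va116 against GDH94, 0 were lower and 2 higher under median-ratio scaling and under quantile normalization, and 2 were lower and 1 higher with only the genotypes compared. With 1 library left out, K326×GDH88 had 3 lower and 0 to 1 higher members against K326, 2 to 4 lower against GDH88, and 3 lower and 0 to 1 higher against the mid-parent value, and Va116 had 0 to 2 lower than GDH94.

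Pairing of samples by the replicate numbers in the labels was looked for in the values, where 3 libraries per genotype cannot exclude a weak pairing. Same-numbered libraries of different genotypes of a cross had correlations of their deviations from -0.029 to 0.253, above 0.1 in 1 of 18 pairs. A library was also set against the 3 libraries of another genotype, 1 of which carried its number. In 6 of 18 such comparisons the library with the same number correlated best. With the replicate block, 1 member was higher than the mid-parent value in K326×GDH88 in place of 0 (Nitab4.5_0008296g0010, 0.222, adjusted p = 0.0321, limma), and the other counts of called members stayed as they were. For that gene and comparison the adjusted p ranged from 0.00769 to 0.382 over the alternatives.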
